A study of Mus musculus with 8 samples.

Results

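The genes described here are Lin28a, Lin28b, Hmga1, Hmga2, Igf2bp1, Igf2bp2, Igf2bp3, Arid3a and Igf1r, which belong to a fetal growth and stem cell program built around the RNA-binding protein Lin28b and the let-7 microRNAs. They were picked by gene symbol and not by a cut on any measured value. Earlier results of these data were known when they and the gene lists around them were chosen. All 9 of the 9 were found among the 24015 genes of the count table. RNA-Seq was carried out on the aorta-gonad-mesonephros region of mouse embryos with its vitelline and umbilical arteries (AGM+VU) at E11.5. From this tissue, hematopoietic clusters were sorted as Ter119- VE-Cadherin+ c-Kit+ cells and endothelium as Ter119- VE-Cadherin+ c-Kit- CD41- CD45- cells, both from wild type mice and from Sl/Sl mice, whose deletion removes the locus of the Kit ligand Kitl. Each of these 4 groups (clusters and endothelium of either genotype) had 2 libraries of 100 cells, and a library came from a pool of 1 to 4 embryos of the same genotype. The p-values refer to the spread between these pools.

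Lin28a and Lin28b are RNA-binding proteins that hold back the maturation of let-7 microRNAs, and Lin28b is known for marking fetal as opposed to adult hematopoietic stem and progenitor cells. The let-7 microRNAs bind through a short seed at their 5′ end and lower the output of messenger RNAs that carry a matching site, among them those of Hmga2, a chromatin protein that bends DNA and is tied to fetal stem cell self-renewal, and of the Igf2bp family, proteins that bind and stabilize growth-related messenger RNAs such as that of Igf2. Hmga1 is the sister gene of Hmga2, Arid3a is a DNA-binding factor of early B lymphoid and stem cells that acts in the Lin28b–let-7 axis, and Igf1r is the receptor through which Igf1 and Igf2 signal.

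The sequences of the mature let-7 family show why these genes are read together, since the family shares its seed. The RefSeq table (build GRCm38.p6) held 11 mature let-7 and miR-98 sequences from 13 hairpins, and 10 of the 11 had the same seed at bases 2 to 8. A selection of 6 that share the seed, chosen to show how the family varies outside it, and the member with another seed are given below 5′ to 3′, with the seed in capitals.
let-7a-5p: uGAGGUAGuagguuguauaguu
let-7d-5p: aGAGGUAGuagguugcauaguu
let-7e-5p: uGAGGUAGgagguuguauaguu
let-7g-5p: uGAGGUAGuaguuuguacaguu
let-7i-5p: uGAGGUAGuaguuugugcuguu
miR-98-5p: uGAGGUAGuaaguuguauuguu
let-7j: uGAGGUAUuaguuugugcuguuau
Only let-7j of these had a different letter within the capitals. Mature microRNAs are not captured by the poly(A)-primed libraries of these cells, and the 14 let-7 hairpin genes of the count table, with models of 83 to 122 bases, had at most 31 counts in any library. Of their 112 values, 105 were 3 counts or fewer, and 8 of the 14 genes were at 0 in all libraries, so the level of let-7 was not measured here.

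The letters that pair with the shared seed, CTACCTC, were searched on the transcribed strand of the joined exons of each gene, with overlapping matches allowed, in the NCBIM37 (mm9) genome that the count table also uses. All 9 genes held at least 1 match and together they held 28, whereas 18.4% of the 23901 genes with exon sequence held any. The genes are known as let-7 targets or partners and were chosen for that, so this is a description of them and not a test. Hmga2 had 6 matches in 4176 exon bases, a number reached by 7 of all genes, and Lin28b had 5 in 5403 bases, a number reached by 12 genes. Igf2bp1, Arid3a and Igf1r had 4 matches each, in 8381, 5421 and 11978 exon bases. Long exons hold more matches by length alone, and of the 150 genes with an exon length within 10% of that of Igf1r, 50.0% held a match and 3.33% held at least 4, against 0.102% of 1966 genes with at least 6 at the length of Hmga2. Lin28a had 2 matches, and Hmga1, Igf2bp2 and Igf2bp3 had 1 each.

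By the GENCODE annotation of the same build, 19 of the 28 matches lay in a 3′ UTR. Those followed by an A, a letter that the let-7 carrier protein Argonaute favours at this place, are shown here for 3′ UTRs of Lin28b, Hmga2, the Igf2bp genes and Arid3a, as genes with counts in every library, each on its own strand 5′ to 3′, with the match and its A in capitals.
Lin28b, chr10:45100829-45100835, minus strand: cccgggcgggaagtCTACCTCAt
Hmga2, chr10:119801281-119801287, minus strand: ccgacattcaatttCTACCTCAg
Igf2bp1, chr11:95823093-95823099, minus strand: ctgtgcgaagtaaaCTACCTCAa
Igf2bp1, chr11:95820672-95820678, minus strand: agcagtgctattaaCTACCTCAg
Igf2bp1, chr11:95820078-95820084, minus strand: tataaatggatgaaCTACCTCAg
Igf2bp2, chr16:22059547-22059553, minus strand: cacacaaataaaagCTACCTCAg
Igf2bp3, chr6:49036787-49036793, minus strand: gcatttttactcaaCTACCTCAg
Arid3a, chr10:79416655-79416661, plus strand: aggcaagtttctttCTACCTCAg
The coordinates cover the 7 letters of the match. Lin28b and Hmga2 each had 3 further 3′ UTR matches without the A, Lin28b also had 1 in a coding exon, and 2 of the matches of Hmga2 lay in its 5′ UTR. The matches of Igf1r were 2 in coding exons and 2 in exon sequence of the count table that runs beyond the 3′ end of its GENCODE model.

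**Figure D1:**
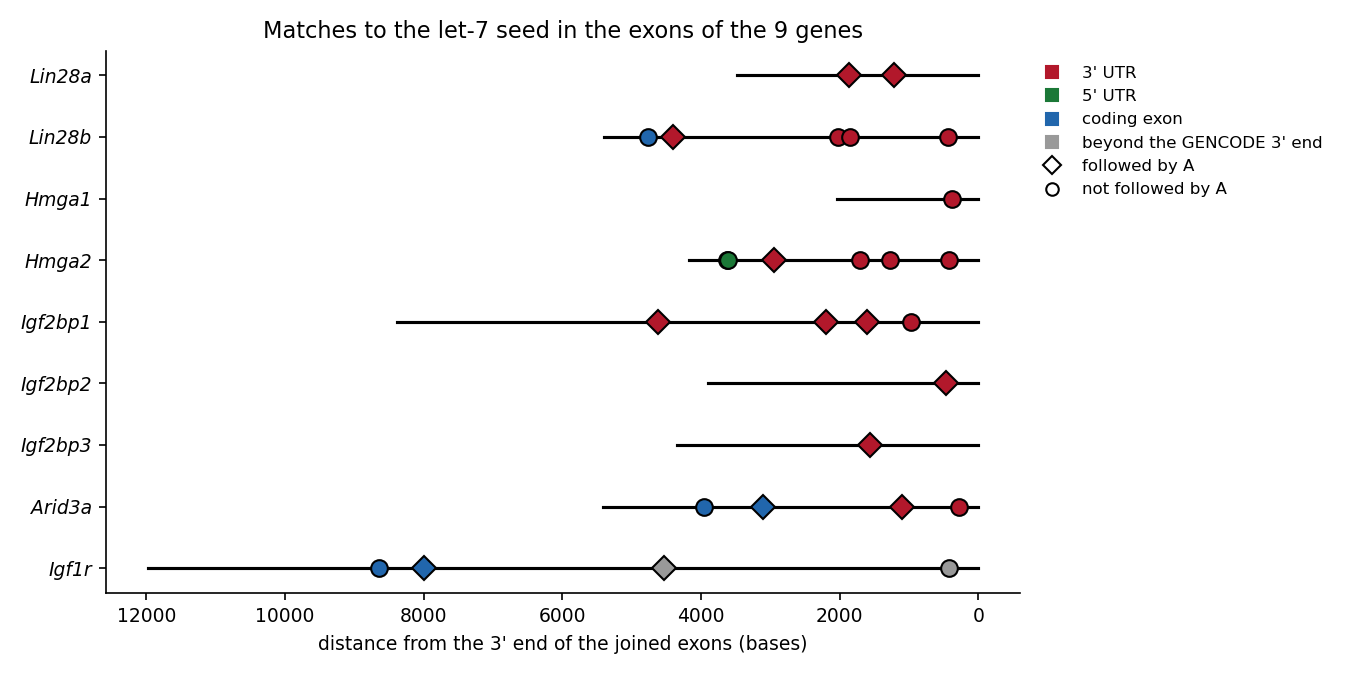
Matches to the let-7 seed along the joined exons of the 9 genes, drawn as distance in bases from the 3′ end of the exons (right), with a line for the exon length, a diamond for a match followed by A and a circle for one without it, coloured by annotated part. Hmga2 has 6 matches, the 2 in its 5′ UTR drawn almost on top of each other, and Lin28b 5, and the 3 matches of Igf2bp1 followed by A all lie in its 3′ UTR.

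Kitl itself, the gene lost in Sl/Sl embryos, had 1250 and 923 counts in the endothelium of wild type embryos but 6 and 2 counts in that of Sl/Sl embryos. The wild type clusters had 110 and 0 counts of it, the Sl/Sl clusters 1 and 3, so the genotype of wild type cluster replicate 2 cannot be read from this gene. Libraries held 8933236 to 13428214 counts on genes. All 12 endothelial markers, Cdh5, Pecam1 and Kdr among them, were detected in every group, and their summed level was 5740 to 6500 CPM (a gene’s counts relative to the library total, on the usual CPM scale and with TMM factors) in endothelium. It was 1140 and 229 CPM in the wild type clusters and 2520 and 568 CPM in the Sl/Sl clusters. The 12 hematopoietic markers summed to 1980 to 2570 CPM in clusters and 1220 to 1330 CPM in endothelium, where Cd34, which both cell types express, made up 1110 ± 48.0 CPM (SD, n = 4).

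Of the 9 genes, 7 had at least 10 counts in every library and 2 were at 5 counts or fewer in each. Lin28a was the near-silent paralog: it had 4 and 3 counts in wild type clusters, 5 and 1 in Sl/Sl clusters, 0 and 1 in endothelium of wild type and 2 and 1 in that of Sl/Sl embryos, 17 in all. Lin28b, by contrast, had 146 to 1708 counts per library, so that nearly all Lin28 counts of these cells were those of Lin28b in every library. Hmga1 had 2 counts over all libraries, and no level of expression is read from them here, since how the counting treated reads with several possible places is not given in the sources used here.

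Per length, as RPKM (CPM divided by exon kilobases), Hmga2 had the highest level of the 9 genes in 8 of 8 libraries, with a median of 124.9 and a range of 70.9 to 244.6. Its median was above that of 95.6% of the genes of the table. The Igf2bp genes followed, with median levels of 34.1 RPKM for Igf2bp3, 29.4 for Igf2bp1 and 16.6 for Igf2bp2, and then Lin28b at 7.15, Igf1r at 6.67 and Arid3a at 4.06 RPKM. The libraries of Hmga2 all lay above those of Igf2bp3, if only just, since the highest Igf2bp3 level was 70.1 RPKM. The neighbours below it overlapped in range: Igf2bp3 was above Igf2bp1 in 6 of 8 libraries, Igf2bp1 above Igf2bp2 in 7, Igf2bp2 above Lin28b in 6 and Lin28b above Igf1r in 5, whereas Igf1r was above Arid3a in 8 of 8. All 3 genes of the Igf2bp family were thus expressed. Of their summed RPKM, Igf2bp3 made up a median of 44.3% (range 23.9% to 59.0%), Igf2bp1 34.7% (24.5% to 49.3%) and Igf2bp2 20.9% (6.99% to 28.8%), and the lowest share of Igf2bp2 was that of wild type cluster replicate 2.

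**Figure D2:**
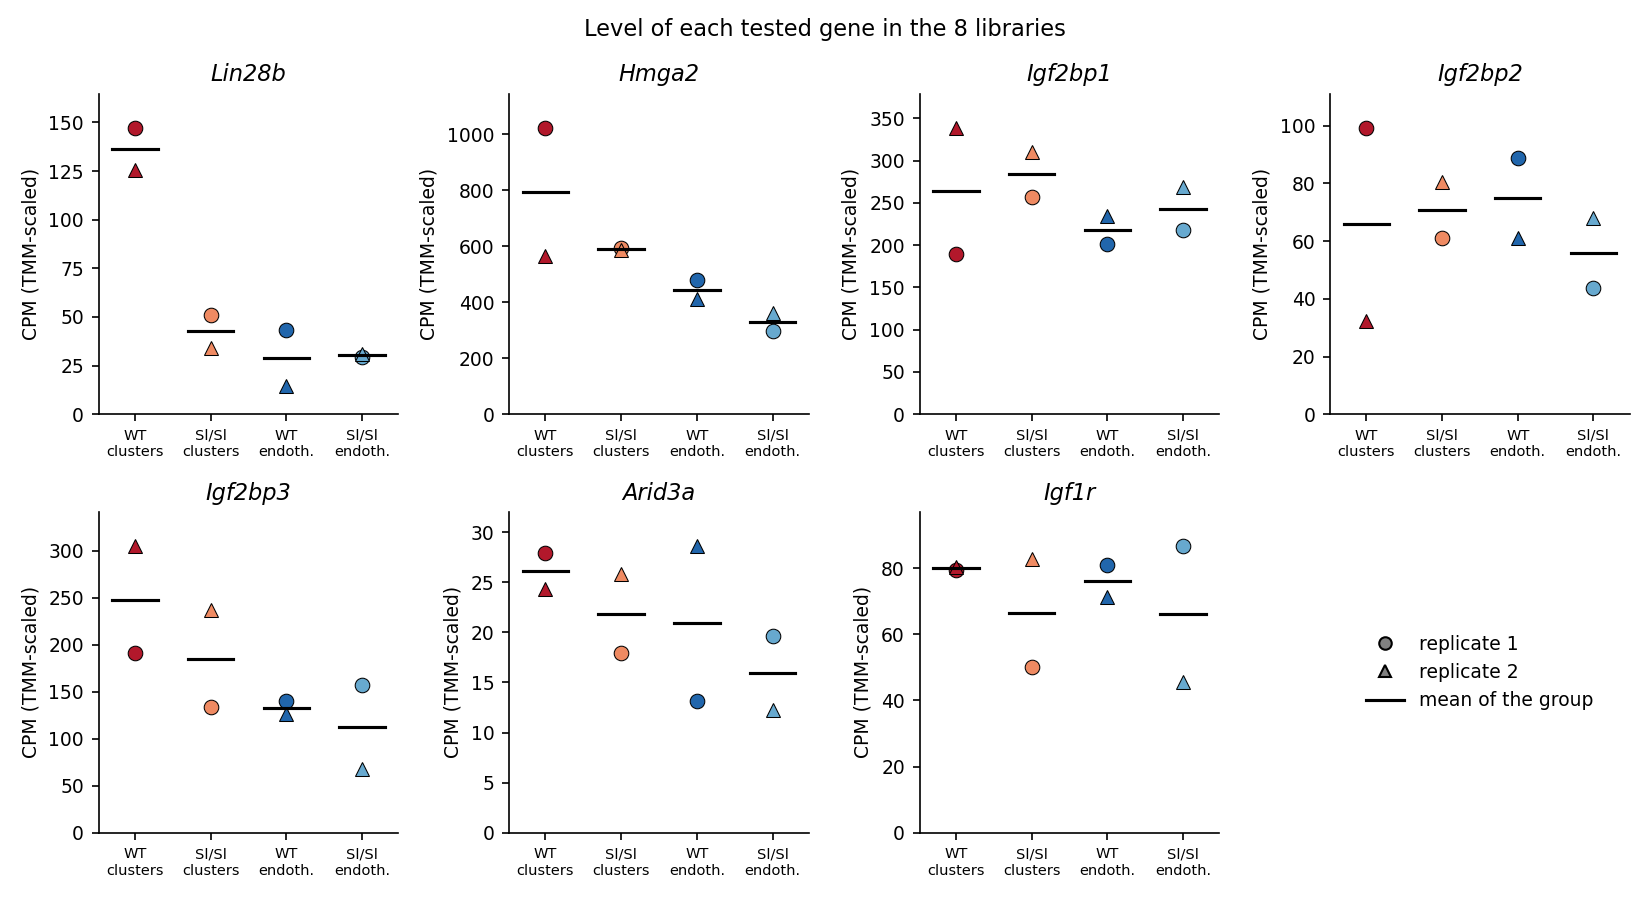
Level (CPM on TMM-scaled totals, linear axis from 0) of the 7 genes with counts in every library, by group; circles and triangles are replicates 1 and 2 and the line is the mean of the 2. Lin28b stands at 147 and 126 CPM in wild type clusters and at or below 51.2 CPM in the other 6 libraries, while the 4 Hmga2 values of clusters lie above the 4 of endothelium.

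The comparison of endothelium with clusters asks which of the cell types held more RNA of the program. Hmga2 and Lin28b were lower in endothelium than in clusters over both genotypes (4 libraries against 4), and none of the 9 genes was called higher. The call was an adjusted p under 0.1 by edgeR's quasi-likelihood test over all 13908 genes that passed the filter on low counts, among them 7 of the 9. At this threshold 16.6% of all genes were called, 8.48% higher and 8.12% lower, so 2 of 7 stand beside that share. The log2 fold change was negative for 7 of the 7, with a median of -0.39 against -0.07 over all genes. Igf2bp2 (-0.08) and Igf1r (-0.04) lay close to the value over all genes, and both changed sign in some fits that left out a library. In these sorted pools, fewer cells of a type and less RNA per cell cannot be told apart.

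Hmga2, the DNA-bending chromatin protein, was measured at 1022 and 565 CPM in wild type clusters and 594 and 585 CPM in Sl/Sl clusters. In endothelium it was 478 and 410 CPM in wild type and 296 and 363 CPM in Sl/Sl. The cell types did not overlap, as the lowest cluster library was above the highest endothelial one, and 9.57% of all tested genes had such a gap in this direction. The log2 fold change was -0.84 ± 0.20 (SE), 1.79-fold lower in endothelium, with an adjusted p of 0.0292 by edgeR. An exact permutation test of log2 CPM, 4 against 4 and two-sided, gave p = 0.0286, the smallest that such a test can give. Every gene with such a gap gets this p, so the test adds nothing to the gap. The difference was nearly the same within each genotype, at -0.84 ± 0.28 in wild type (adjusted p = 0.145, edgeR) and -0.84 ± 0.28 in Sl/Sl (adjusted p = 0.215, edgeR), where 2 libraries stand against 2 and the call was not reached. Over both genotypes the call held without any single library, the smallest difference being -0.59 without wild type cluster replicate 1 (adjusted p = 0.0693, edgeR). The wild type difference was -0.35 without that library (adjusted p = 0.656, edgeR) and -1.24, and called, without wild type cluster replicate 2 (adjusted p = 0.0423, edgeR). The Sl/Sl difference was called when the latter was left out of the shared fit (adjusted p = 0.0891, edgeR).

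Lin28b was measured at 147 and 126 CPM in wild type clusters, 51.2 and 33.9 CPM in Sl/Sl clusters, 43.4 and 14.8 CPM in wild type endothelium and 29.5 and 31.1 CPM in Sl/Sl endothelium. The wild type clusters were the high libraries, and the Sl/Sl clusters lay near the endothelium, overlapping it where wild type endothelium replicate 1 exceeded Sl/Sl cluster replicate 2. Over both genotypes Lin28b was 2.57-fold lower in endothelium (log2 fold change -1.36 ± 0.38 SE, adjusted p = 0.0510, edgeR), and the exact permutation test, two-sided, gave p = 0.0571. The call was lost without wild type cluster replicate 1 (adjusted p = 0.108, edgeR) and without Sl/Sl cluster replicate 1 (adjusted p = 0.121, edgeR).

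Within wild type, Lin28b was the gene of the 7 that edgeR called (DESeq2 also called Hmga2, adjusted p = 0.0491), 4.69-fold lower in endothelium (log2 fold change -2.23 ± 0.55 SE, adjusted p = 0.0546, edgeR), where 8.24% of all genes were called and 3.68% were called lower. Its wild type libraries did not overlap between cell types, which held for 25.5% of genes in this direction. The size leaned on the endothelial pair, whose libraries differed 2.94-fold from each other. Without wild type endothelium replicate 1 the log2 fold change was -3.21, and without replicate 2 it was -1.65 and no longer called (adjusted p = 0.183, edgeR). The call was also lost without either wild type cluster library (adjusted p = 0.131 without replicate 1 and 0.111 without replicate 2, edgeR). Within Sl/Sl the Lin28b difference was -0.49 ± 0.53 (adjusted p = 0.733, edgeR). None of the 7 genes was called there by edgeR, beside 2.83% of all genes. An unadjusted edgeR p under 0.05 was found for 1 of the 7, Hmga2, beside 14.4% of all genes. DESeq2 called 1 of the 7 there, also Hmga2 (adjusted p = 0.0746). Of its 17077 genes, DESeq2 called 635 higher and 979 lower within Sl/Sl, and 1308 and 1272 within wild type. The Sl/Sl libraries of Hmga2 and of Lin28b did not overlap between cell types, as for 24.4% of genes in this direction.

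None of the Igf2bp genes, the mRNA-binding arm of the program, was called between the cell types. Igf2bp3 was measured at 191.5 and 304.5 CPM in wild type clusters, 133 and 237 CPM in Sl/Sl clusters, 139.8 and 126 CPM in wild type endothelium and 156.6 and 67.4 CPM in Sl/Sl endothelium. Its highest value was in wild type cluster replicate 2 and its lowest in Sl/Sl endothelium replicate 2, with overlap in between. The log2 fold change was -0.81 ± 0.32 (SE) with an adjusted p of 0.143 by edgeR, which is not a call, although DESeq2 on the same libraries passed the threshold (adjusted p = 0.0611). It was also called by edgeR without wild type cluster replicate 1 (adjusted p = 0.0972), Sl/Sl cluster replicate 1 (adjusted p = 0.0867) or Sl/Sl endothelium replicate 1 (adjusted p = 0.0359). Igf2bp1 ranged from 189 to 339 CPM over the 8 libraries and differed by -0.25 between cell types, with a 95% interval of -0.75 to 0.25. Igf2bp2 ranged from 32.4 to 99.2 CPM, both ends of which were wild type cluster libraries, and differed by -0.08, with an interval of -0.94 to 0.79.

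Arid3a and Igf1r did not pass the test between cell types either. Arid3a was measured at 27.9 and 24.4 CPM in wild type clusters, 17.9 and 25.8 CPM in Sl/Sl clusters, 13.2 and 28.6 CPM in wild type endothelium and 19.6 and 12.3 CPM in Sl/Sl endothelium, with a log2 fold change of -0.39 (95% interval -1.52 to 0.74). Igf1r was measured at 79.4 and 80.4 CPM in wild type clusters, 50.1 and 82.9 CPM in Sl/Sl clusters, 80.9 and 71.3 CPM in wild type endothelium and 86.6 and 45.5 CPM in Sl/Sl endothelium. The receptor was lowest in Sl/Sl endothelium replicate 2 and Sl/Sl cluster replicate 1, and its cell type difference was -0.04 with an interval of -0.72 to 0.64.

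**Figure D3:**
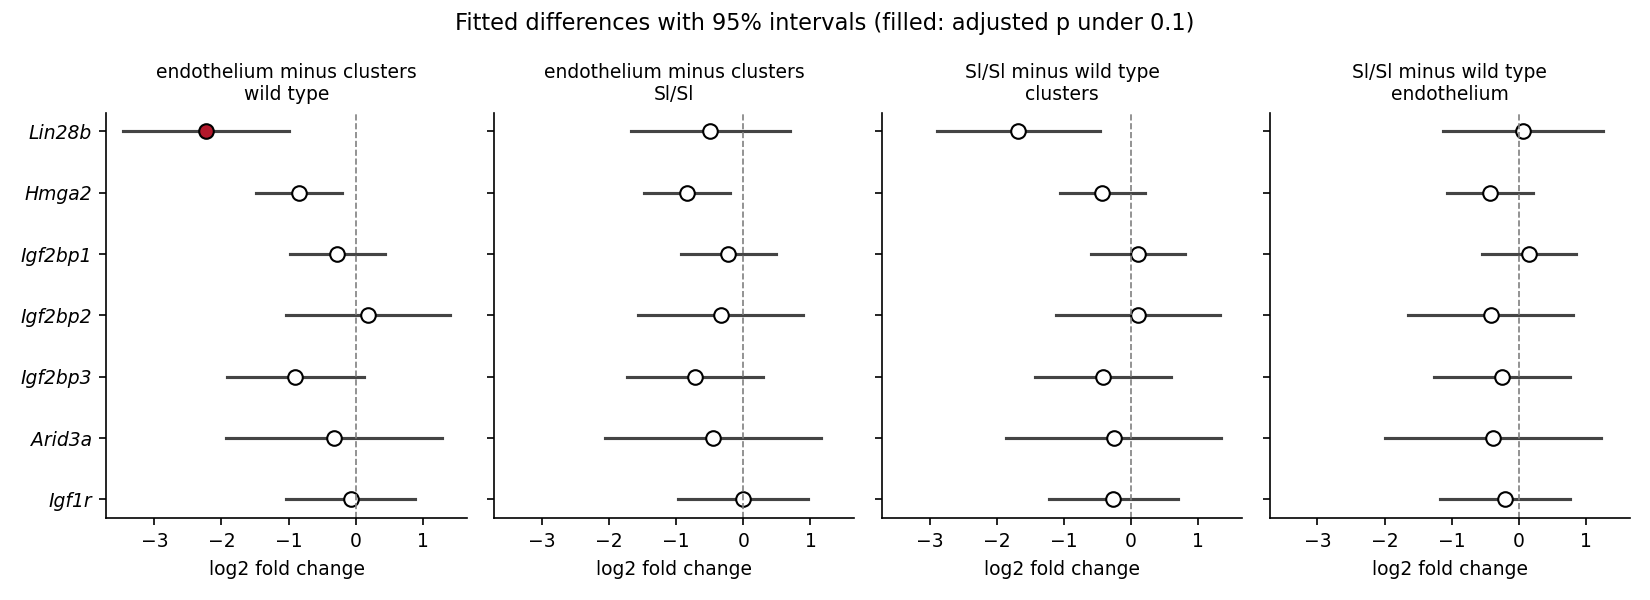
Fitted log2 fold changes (points) with 95% intervals (lines) of the 7 tested genes, for endothelium minus clusters in wild type and in Sl/Sl and for Sl/Sl minus wild type in clusters and in endothelium; filled points have an adjusted p under 0.1 by edgeR. Lin28b at -2.23 in the wild type cell type comparison is the filled point, and its interval in Sl/Sl against wild type clusters, -2.89 to -0.47, lies below 0 without a call.

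The comparison of Sl/Sl with wild type asks whether the program differed in cells that formed without Kitl. None of the 7 genes was called in clusters, where edgeR called 0 of 13908 genes (0%), 4.22% of genes and 1 of the 7 had an unadjusted p under 0.05, and DESeq2 called 164 genes higher and 11 lower, none of the 7 among them. The 1 gene with an unadjusted p under 0.05 was Lin28b. Its Sl/Sl clusters, at 51.2 and 33.9 CPM, were both below the wild type ones at 147 and 126 CPM, a gap in a direction that 16.3% of genes shared. The log2 fold change was -1.68 ± 0.54 (SE), 3.2-fold lower, with a 95% interval of -2.89 to -0.47, an unadjusted p of 0.0120 and an adjusted p of 0.969 by edgeR (0.174 by DESeq2). With 2 libraries against 2 an exact permutation test cannot go below p = 0.333. When each library was left out in turn, the difference stayed between -2.004 and -1.411.

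In endothelium Lin28b showed no such gap, at 43.4 and 14.8 CPM in wild type and 29.5 and 31.1 CPM in Sl/Sl. Its log2 fold change was 0.06 ± 0.53 (SE), with a 95% interval of -1.13 to 1.25. The test of whether the genotype difference of Lin28b itself differed between the cell types gave -1.74 ± 0.75 (SE) on the log2 scale, with an unadjusted p of 0.0450 and an adjusted p of 0.902 by edgeR. In this interaction edgeR called 0% of all genes, with 5.29% of genes and 1 of the 7 at an unadjusted p under 0.05, while DESeq2 called 131 genes higher and 44 lower, none of the 7 among them. In the genotype comparison of endothelium edgeR called 0%, with 4.17% of genes and none of the 7 at an unadjusted p under 0.05, while DESeq2 called 85 genes higher and 94 lower, none of the 7 among them.

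Other RNA also differed between the cluster libraries. Beside the Lin28b values of 147 and 126 CPM in wild type and 51.2 and 33.9 CPM in Sl/Sl, the 12 skeletal muscle markers summed to 16.6 and 45.8 CPM in wild type clusters and 359 and 911 CPM in Sl/Sl clusters, against 43.1 to 65.1 CPM in endothelium, with Pax3 and Pax7 at 0 in all libraries. Of these muscle marker sums, Actc1 alone made up 335 CPM in Sl/Sl cluster replicate 1 and 328 CPM in replicate 2. Acta1 was at 0.0821 CPM in the former and 215 CPM in the latter. The 12 mesenchymal markers summed to 907 and 1210 CPM in wild type clusters and 434 and 5460 CPM in Sl/Sl clusters. In endothelium they summed to 1960 and 387 CPM in wild type and 647 and 1390 CPM in Sl/Sl. Among the clusters, endothelial markers were higher in replicate 1 of either genotype, the same cluster libraries in which Lin28b was the higher of its pair. The 17 germ cell markers of the table, with Pou5f1 and Mael at 0 throughout, summed to 201 CPM in wild type cluster replicate 1 and 10.7 to 33.8 CPM in the other 7 libraries. Lin28a, which germ cells express, had 4 counts in that library. The 11 macrophage markers summed to 278 to 864 CPM in clusters and 6.91 to 34.9 CPM in endothelium, beside the higher Hmga2 and Lin28b of clusters. The 12 erythroid markers, with Hba-a1 and Slc4a1 at 0, summed to 24.6 to 269 CPM. The part of this RNA in the differences of Lin28b and Hmga2 was not tested.

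**Figure D4:**
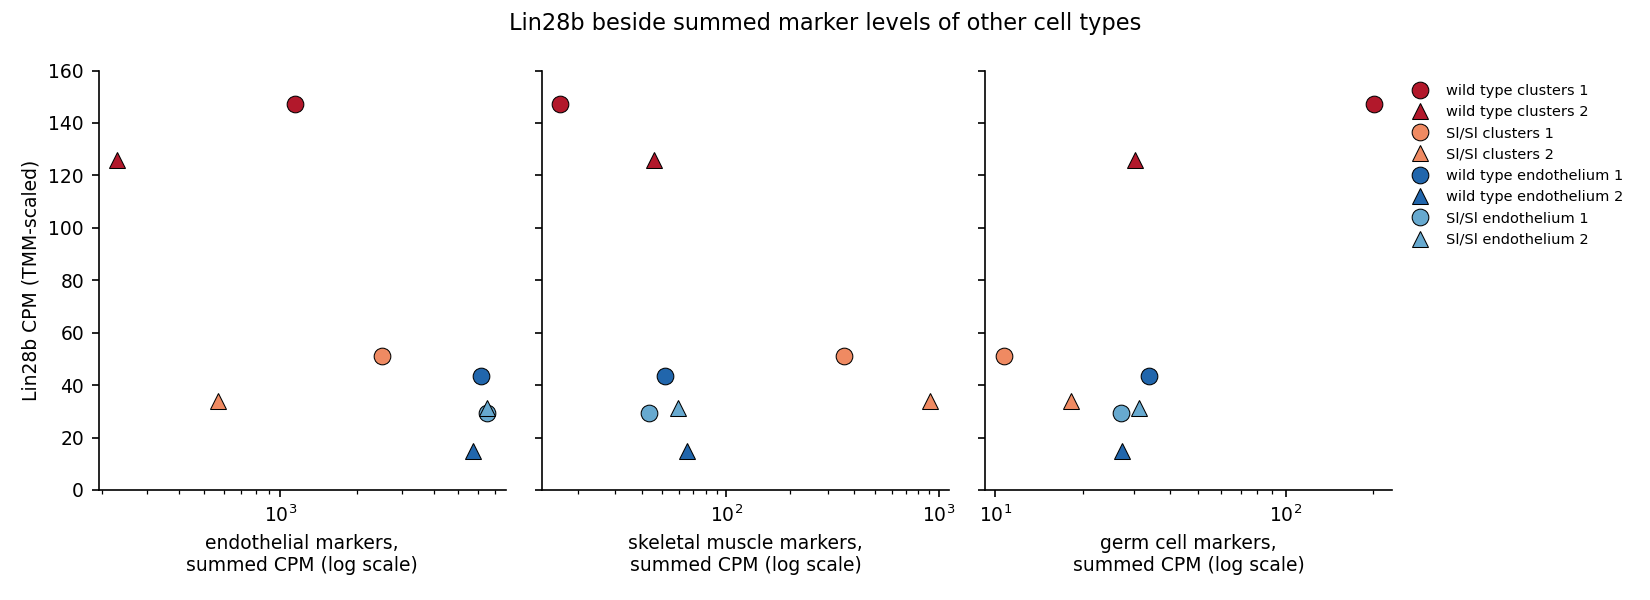
Lin28b level (CPM on TMM-scaled totals, linear axis) of each library beside its summed CPM of endothelial, skeletal muscle and germ cell markers (log axes); colours are groups, circles and triangles replicates 1 and 2. The 2 wild type cluster libraries are at the top in each panel, with endothelial sums of 1140 and 229 CPM. The Sl/Sl clusters have the highest skeletal muscle marker sums, 359 and 911 CPM, of which Actc1 made up 335 and 328 CPM.

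For the other genes the genotype differences were small beside the spread. Hmga2 was lower by the same amount in Sl/Sl clusters (-0.43 ± 0.28 SE) and Sl/Sl endothelium (-0.43 ± 0.28 SE), neither of them a call (adjusted p = 1, edgeR). Its endothelial libraries did not overlap between genotypes, as for 14.9% of genes in this direction, whereas in clusters the difference rested on wild type replicate 1 and was 0.06 without that library. Igf2bp1 differed by 0.11 in clusters and 0.16 in endothelium, Igf2bp2 by 0.11 and -0.42, and Igf2bp3 by -0.42 and -0.25. Arid3a differed by -0.26 and -0.39 and Igf1r by -0.26 and -0.20. The intervals of Arid3a, from -1.86 to 1.34 in clusters and from -1.99 to 1.22 in endothelium, were the widest of these. Over the 7 genes the median genotype difference was -0.26 in clusters and -0.25 in endothelium, against 0.03 and -0.001 over all genes.

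Lin28b, Hmga2 and Arid3a share chromosome 10 with Kitl, whose locus the Sl/Sl deletion takes in. In mm9 coordinates, Kitl lies at chr10:99478458-99563046, Arid3a at chr10:79389788-79417763, 20.1 Mb away, Hmga2 at chr10:119798331-119913991, 20.2 Mb away, and Lin28b at chr10:45096425-45190007, 54.3 Mb away. In the 4 Sl/Sl libraries Hmga2 had 3047 to 8374 counts, Lin28b 261 to 624 and Arid3a 103 to 370. The remaining genes lie on chromosomes 4 (Lin28a), 6 (Igf2bp3), 7 (Igf1r), 11 (Igf2bp1), 16 (Igf2bp2) and 17 (Hmga1).

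Around the receptor Igf1r, 10 of 26 tested genes of the insulin-like growth factor pathway were called higher in endothelium and 0 lower over both genotypes, beside 8.48% and 8.12% of all genes. The other 16 were not called, and 6 of the 26 had a negative log2 fold change, with a median log2 fold change of 0.87 against -0.07 over all genes. Igf1, a ligand of the receptor, was measured at 40.7 and 42.0 CPM in wild type clusters, 127 and 172 CPM in Sl/Sl clusters and 270 to 400 CPM in endothelium, so that its cell types did not overlap, as for 10.1% of all genes in this direction. It rose by 2.16 ± 0.21 (SE) on the log2 scale in endothelium (adjusted p = 0.000443, edgeR). Igfbp2 (2.44) and Igfbp3 (3.80), which bind the ligands outside the cell, and Htra1 (3.90), a protease that cleaves such binding proteins, rose as well, with adjusted p-values of 0.00103, 0.00228 and 0.0292 by edgeR. Igf2, the fetal ligand whose messenger RNA gave the Igf2bp family its name, was among the 10, at 223 to 822 CPM in clusters and 1280 to 1590 CPM in endothelium, where the Igf2bp genes were not called higher. None of the 26 was called between genotypes by edgeR, with 3 in clusters and 0 in endothelium at an unadjusted p under 0.05, Igf1 among them (log2 fold change 1.86 in clusters, adjusted p = 0.172, edgeR), whose cluster libraries did not overlap between genotypes, as for 16.4% of all genes in this direction. The endothelial markers summed to 2520 and 568 CPM in the Sl/Sl clusters and 1140 and 229 CPM in the wild type clusters, with overlap between the genotypes. The part of that RNA in the Igf1 values was not tested.

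**Figure D5:**
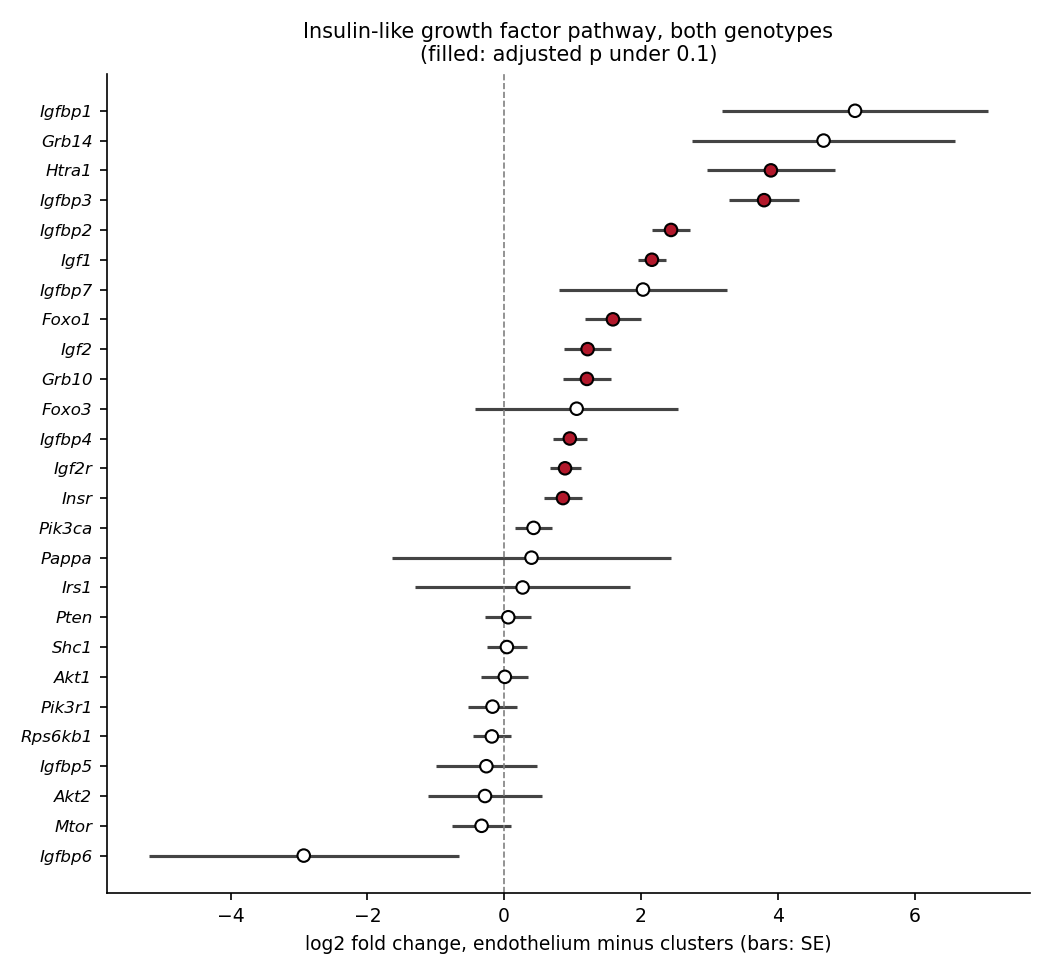
Log2 fold change, endothelium minus clusters over both genotypes, of the 26 tested genes of the insulin-like growth factor pathway, with SE bars; filled points have an adjusted p under 0.1 by edgeR. All 10 filled points lie to the right of 0, from Insr at 0.86 to Htra1 at 3.90.

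Genes of let-7 processing and decay were mostly not called between the cell types, with 1 of 24 tested genes higher and 1 lower in endothelium, beside 8.48% and 8.12% of all genes, and a median of -0.11 against -0.07. Prkra, which encodes a partner of the let-7-producing enzyme Dicer, rose from 114 ± 45.1 CPM in clusters to 236 ± 38.8 CPM in endothelium (SD, n = 4 each; adjusted p = 0.0103, edgeR). Drosha, whose enzyme makes the initial cut of microRNA hairpins, fell from 84.8 ± 44.6 to 38.7 ± 8.90 CPM (SD, n = 4 each; adjusted p = 0.0586, edgeR). Its values were 147 and 85.5 CPM in wild type clusters and 57.3 and 48.9 CPM in Sl/Sl clusters, a gap in a direction that 16.3% of genes shared. Prkra went the other way, at 85.7 and 65.5 CPM in wild type clusters and 157 and 147 CPM in Sl/Sl clusters. Such a gap held for 16.4% of genes in that direction. Neither was called between genotypes in clusters (adjusted p = 1 for Drosha and 0.841 for Prkra, edgeR). Trim71, a fetal ubiquitin ligase and let-7 target, ranged from 0 to 57.2 CPM and Dis3l2, the nuclease that removes let-7 precursors marked by Lin28, from 0.953 to 17.3 CPM, and neither was called.

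Other known let-7 targets moved in both directions. Of 36 tested, 2 were called higher and 6 lower in endothelium, beside 8.48% and 8.12% of all genes, with a median of -0.04 against -0.07 over all genes. Mycn, a growth-promoting transcription factor, was measured at 84.5 to 185 CPM in clusters and 43.4 to 58.0 CPM in endothelium (log2 fold change -1.35, adjusted p = 0.0292, edgeR). Rrm2, a subunit of the enzyme that makes deoxynucleotides, fell by 0.65 on the log2 scale (adjusted p = 0.0379, edgeR) and Thbs1, a matrix glycoprotein, fell by 2.52 (adjusted p = 0.0606, edgeR). Il6, a cytokine, was called lower too (adjusted p = 0.0613, edgeR), at 0.489 to 7.06 CPM in clusters and at most 0.0875 CPM in endothelium. With so few counts in endothelium, it passed the filter on low counts through the cluster libraries only. Its place among the 6 called lower therefore depends on that filter. Map4k3, a kinase, and Insr, the insulin receptor, were higher in endothelium by 2.03 and 0.86 (adjusted p = 0.0174 and 0.0878, edgeR). None of the 36 was called between genotypes in either cell type by edgeR, with 1 and 2 at an unadjusted p under 0.05.

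The relatives of the Hmga and Arid3a proteins were mostly not called, with 1 of 22 tested genes higher and 1 lower in endothelium, beside 8.48% and 8.12% of all genes, and a median of -0.06 against -0.07. Hmgn3, a nucleosome-binding protein, rose by 1.31 (adjusted p = 0.0137, edgeR), and Ssrp1, a subunit of a histone chaperone, fell by 0.88 on the log2 scale (adjusted p = 0.0407, edgeR). Of 19 partners of the Igf2bp proteins and other mRNA-binding factors, 3 were called lower and 0 higher, beside 8.12% and 8.48% of all genes, with a median of -0.25 against -0.07. Pabpc1, the poly(A)-binding protein, was measured at 677 to 1090 CPM in clusters and 441 to 515 CPM in endothelium (log2 fold change -0.83, adjusted p = 0.00464, edgeR). Cd44, whose messenger RNA Igf2bp proteins bind, and Ybx1, an mRNA-binding partner, fell by 1.02 and by 0.55 on the log2 scale (adjusted p = 0.0289 and 0.0846, edgeR).

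The program stood beside a wider set of fetal and adult stem cell genes, of which 6 of 29 were called higher and 11 lower in endothelium, beside 8.48% and 8.12% of all genes, with a median of -0.48 against -0.07. The 11 include Runx1, Ikzf1, Dnmt3b and Kit, genes of hematopoietic identity and of the cluster gate, at -6.04, -6.97, -3.01 and -1.90 on the log2 scale, differences larger in size than the -1.36 of Lin28b. Kit encodes the protein on which the cells were sorted, so its difference is that of the gate. The genes higher in endothelium include Plagl1 (2.50) and H19 (1.51), an imprinted gene of a zinc finger transcription factor and an imprinted non-coding RNA, and Esam (2.36) and Sox17 (2.93), genes of fetal endothelium and stem cells. The adjusted p-values of these 8 genes ranged from 5.96e-05 to 0.0489 by edgeR. None of the genes of these lists was called between genotypes in clusters or in endothelium by edgeR.

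The genes with the most similar profile over the 8 libraries were found as those with the smallest root mean square difference of mean-centred log2 CPM. For Lin28b these were 2610015P09Rik (0.40) and 4931406C07Rik (0.42), against a median of 1.39 over all genes, which makes its profile the least closely matched of the 7. For Hmga2 they were Dr1 (0.15) and Dhx33 (0.16), with cell type differences of -0.92 and -0.90 on the log2 scale. Igf2bp1 was matched by Tmem199 (0.09) and Pgam1 (0.10), Igf2bp2 by Mir684-1 (0.24) and Osbp (0.25), and Igf2bp3 by Pdha1 (0.19) and Ccz1 (0.22). Arid3a was matched by Tcf20 (0.16) and Rbbp6 (0.17) and Igf1r by Ccng2 (0.11) and Ebag9 (0.13). Mir684-1 was low, at 1.87 to 3.53 CPM. No gene of the program was among the closest matches of another. The nearest within the program were Arid3a and Igf1r, 0.39 apart, while Lin28b was 0.73 from Hmga2.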

How the data were processed

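RNA-Seq counts of 8 libraries were analysed, 2 in each of 4 groups. The authors prepared Smart-seq2 libraries of 100 cells, aligned 75 bp read pairs to mm9 with STAR 2.4.2a, merged lanes and counted reads on genes with featureCounts (Subread 1.4.5); the deposited values are these raw counts per gene, with no normalization and no pooling of replicates. The gene annotation, the strand setting and the handling of reads on several genes or places are not given in the sources used here, so overlapping or near-identical genes can share reads. Without molecular identifiers, amplified reads are not independent molecules. The study itself tested with DESeq2 1.12.4 at a false discovery rate of 0.1. It reported genes past that rate between genotypes in both cell types, more of them in clusters than in endothelium. The 2 sorting experiments are not tied to samples, so no batch could be fitted. The number of columns with no sample was 0, and 27 gene names turned into dates were kept in the tests but not named.

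Counts were tested with edgeR 4.0.16 in R 4.3.3: TMM factors, filterByExpr on the 4 groups (13908 genes kept), 1 mean per group, glmQLFit and glmQLFTest, Benjamini-Hochberg adjustment over all genes tested and a threshold of 0.1. The fit had 4 residual and 5.24 prior degrees of freedom and a common dispersion of 0.667. Replicates of a group correlated at 0.885 to 0.899 (Spearman, across genes), and no 2 libraries of a group were identical. log2 CPM used a prior count of 2. Exact permutation tests were two-sided. The fit was tested on simulated data. Alternatives were RLE size factors, no filter, at least 10 counts in every library, DESeq2 1.42.0, the compared libraries only, a replicate block, a threshold of 0.05, plain totals for RPKM and leaving out each library.

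The genes and the lists around them were chosen with earlier results of these data known. Named genes were the 9, of each list the 4 called genes at most with the smallest p in each direction between cell types, the 2 closest profiles for each gene and Kitl; Igf2, Trim71 and Dis3l2 were added after their values were seen. MicroRNA sequences came from RefSeq, exon sequences from the NCBIM37 genome at the coordinates of the count table, and annotated parts from GENCODE vM1.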

Additional observations from a re-analysis of the deposited data

How the results depend on the processing

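Between cell types over both genotypes, the count of called genes (2) was 1 at an adjusted p under 0.05 and 2 to 3 with each library left out. In wild type (1) it was 2 without a filter, 2 with at least 10 counts in every library and 2 with DESeq2, Hmga2 being added each time, and 0 at an adjusted p under 0.05, with 0 to 1 when libraries were left out. In Sl/Sl (0) it was 1 without a filter and 1 with DESeq2, Hmga2 in both cases, and 0 to 1 when libraries were left out. The genotype and interaction counts stayed at 0 in every alternative run. Igf2bp3 over both genotypes passed the threshold without a filter (adjusted p = 0.0149), with at least 10 counts in every library (0.0881), with DESeq2 (0.0611) and in 3 of the fits that left out a library. Among all genes, Sl/Sl against wild type clusters went from 0 called to 243 higher and 10 lower without a filter and to 164 higher and 11 lower with DESeq2; in endothelium the counts were 26 and 39, and 85 and 94, and for the interaction 155 and 24, and 131 and 44. Called higher and lower between cell types were 1127 and 863 genes without a filter and 1308 and 1272 with DESeq2 in wild type (634 and 512 as reported), 575 and 691, and 635 and 979 in Sl/Sl (137 and 256), and 1715 and 1901 with DESeq2 over both genotypes (1180 and 1130). The interaction of Hmga2, 0.001 on the log2 scale, was -0.009 with RLE factors and -0.01 with DESeq2. The cause of these shifts was not tested.

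With each library left out, uncalled log2 fold changes that changed sign ran as follows. Between cell types over both genotypes, Igf2bp2 ran from -0.40 to 0.44 and Igf1r from -0.34 to 0.17; in wild type, Igf2bp1 from -0.64 to 0.17, Igf2bp2 from -0.44 to 1.21, Arid3a from -0.99 to 0.13 and Igf1r from -0.164 to 0.018; in Sl/Sl, Igf1r from -0.57 to 0.40. Between genotypes in clusters, Hmga2 ran from -0.80 to 0.062, Igf2bp1 from -0.25 to 0.58, Igf2bp2 from -0.49 to 1.13 and Igf1r from -0.67 to 0.056. In endothelium, Lin28b ran from -0.50 to 1.04, Igf2bp1 from -0.012 to 0.31, Igf2bp3 from -0.98 to 0.23, Arid3a from -0.84 to 0.29 and Igf1r from -0.74 to 0.18. For the interaction, Hmga2 ran from -0.37 to 0.49, Igf2bp1 from -0.41 to 0.42, Igf2bp2 from -0.074 to 1.55, Igf2bp3 from -0.65 to 0.55, Arid3a from -0.52 to 0.59 and Igf1r from -0.47 to 0.47. A group left with 1 library was assumed to vary like the others.

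Replicate numbers are shared between groups, but same-numbered libraries deviated together only weakly. The correlations of deviations were 0.157 in the genotype comparison of clusters, -0.002 in that of endothelium, and -0.012 and 0.023 between cell types. Weak correlations cannot tell whether same-numbered libraries came from the same sorting experiment, which the labels do not give. With the replicate block, the called genes numbered 2 over both genotypes, 1 in wild type and 0 elsewhere, Lin28b had a cell type difference of -1.39 (adjusted p = 0.0358, edgeR), and 8 of all genes were called between genotypes in clusters, against 0 without it. Scaling RPKM by plain totals moved 3 group levels beyond their spread, Lin28b in Sl/Sl endothelium to 5.32, Hmga2 in Sl/Sl clusters to 147 and Igf1r in wild type clusters to 7.01.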

Other observations

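The count table also holds Hmga2-ps1, a processed copy of Hmga2, which was looked at after its values were seen. It is a model of 1 exon of 1510 bases at chr1:178764755-178766264 (mm9), between the exons of Sdccag8. It had 35 and 284 counts in wild type clusters and 83 and 30 in Sl/Sl clusters, but 1 and 0 counts in the endothelium of either genotype. These were 432 counts in clusters, 284 of them in a single library, and 2 in endothelium, and no ratio is given against so few counts. Hmga2 itself was 1.79-fold lower in endothelium, and the copy's counts were 0.295% to 3.91% of those of Hmga2 in clusters. Over 596 aligned bases the sequence of the copy was 97.5% identical to the exons of Hmga2, in the orientation opposite to the strand given in the table. Of its 1436 stretches of 75 bases, the read length, 32 (2.23%) also occur in those exons. Reads of the 2 genes can therefore be confused over part of the copy, and whether its counts come from Hmga2 transcripts was not tested.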
